A study of Mus musculus with 12 samples.

Results

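Cytoplasmic ribosomal protein genes encode the protein parts of the large (Rpl) and small (Rps) ribosomal subunits. They were taken by symbol: Rpl or Rps followed by a number, a, p or sa, leaving out the Rps6k kinases and names with ps, which mark pseudogenes. Of 25860 genes listed, 91 symbols met this rule, and 90 of them averaged 10 or more normalized counts across the 6 RNA libraries, as did 14459 genes in all. The members comprised 54 large subunit and 36 small subunit symbols. Of these, 77 were standard ribosomal protein genes, and 13 were paralogs, retrogenes or, for Rps19bp1, a protein that binds a ribosomal protein. Although names with ps were left out, 4 of the 13 (Rpl32l, Rpl6l, Rpl37rt and Rps4l) are processed pseudogenes in the GENCODE annotation, with no coding length.

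A ribosome reads messenger RNA on its small subunit and joins amino acids on its large subunit. Each subunit needs nearly all of its proteins in equal numbers, and many of their messenger RNAs begin with a pyrimidine tract through which growth signals set translation. T cells that leave rest and divide are known to raise ribosome production.

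RNA and open chromatin were measured in progenitor CD8+ T cells that were sorted out of the pancreatic lymph node of NOD.NY8.3 mice, whose T cells carry 1 transgenic receptor against an islet antigen. WT mice were compared with UTXTCD.NY8.3 mice, in which Lck-Cre deletes floxed UTX (gene symbol Kdm6a, an X-linked histone demethylase). The publication names Cre-negative littermates as WT, gives the floxed genotype as UTX fl/fl and states that only females were used. Each genotype had 3 libraries per assay. The series record gives the sort gate as Ly108+CXCR6-, whereas the publication gives Ly108+ CD39-; the age of the mice behind these libraries was not stated. Lck-Cre acts in the T lineage as a whole, including CD4 T cells, so the sorted cells came from mice in which other T cells lacked UTX as well. Both genotypes carried the NY8.3 receptor on the NOD background.

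The RNA libraries held 146456724, 144503203 and 193568919 counted reads in WT 1 to 3 and 61512402, 175462433 and 187275082 in UTX 1 to 3. UTX 1 was thus the shallowest library, in which 1 read weighed 2.25 normalized counts against 0.737 in UTX 3. Kdm6a stood at 28365, 28949 and 29172 normalized counts in WT and at 24158, 24792 and 24579 in the UTX-deficient libraries. Every UTX-deficient library lay below every WT library (log2 difference -0.23, SE 0.037, adjusted p = 0.00114 by limma), and gene counts do not say from which exons the reads came.

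The T cell label was checked on 10 identity genes, all past the mean of 10 and led by Cd8a, a chain of the CD8 coreceptor. Cd8a had 272448, 270012 and 274004 normalized counts in WT and 311527, 312999.9 and 270975 in UTX-deficient cells, so the groups overlapped. Summed over the list, the level was 1336003, 1278995 and 1291018 in WT against 1305245, 1265669 and 1198683. At adjusted p under 0.05, 2 identity genes were higher and 4 lower, against 20.2% and 20.5% of all genes tested. The median log2 difference of the list was -0.042. Among identity genes past the test, the largest difference was that of Cd8b1, the other CD8 chain, which fell by 0.37. It was followed by Cd3d of the receptor complex, which fell by 0.28.

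Among the genes of the gate, Slamf6, which encodes Ly108, had 27732, 34096 and 23305 normalized counts in WT and 36665, 30979.8 and 35425 in UTX-deficient cells, with overlap (adjusted p = 0.089; without WT 2 the log2 difference was 0.43 and passed the test). The chemokine receptor gene Cxcr6 fell by 1.07, from 12757, 9619 and 13724 to 5286, 5994 and 5695. Entpd1, which encodes CD39, was low, at 10.9, 29.6 and 11.4 against 4.50, 12.8 and 4.42. Cd44, an activation marker, was higher by 0.17 (adjusted p = 0.0322), but it no longer passed without WT 1 (0.19), WT 2 (0.17), WT 3 (0.15), UTX 1 (0.17) or UTX 3 (0.13).

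Marker lists of other cell types were also followed, and their part in the results on ribosomal protein genes was not tested. For these and all later gene lists, counts stand against 20.2% of all genes tested that were higher and 20.5% that were lower. Of 8 B cell markers 6 were tested, 2 higher and 1 lower. Their sum was 3056, 2558 and 2902 normalized counts in WT and 1527, 1350 and 1558 in UTX-deficient cells. The most abundant was Cd79b, a B cell receptor chain, which fell by 1.98, while Cd22 was higher by 1.90, and the B lineage factors Pax5 and Ebf1 had means under 10. Of 12 myeloid markers 7 were tested, 1 higher and 2 lower, with sums of 5567, 4986 and 4097 against 4766, 3627 and 3776; Cst3 was the most abundant, and the granulocyte genes S100a8 and S100a9 were at 0 in every library.

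Of 6 natural killer cell markers 4 were tested, 2 higher and 1 lower, and their sums were 13507, 15439.9 and 13292 against 19183, 19153 and 26968. Nearly all of that was Eomes, a transcription factor that CD8 T cells express too, and the defining receptor Ncr1 had a mean under 10. All 6 CD4 T cell markers were tested, 1 higher and 3 lower, with sums of 11863, 12733 and 10918 against 12426, 12119 and 13820.1. Icos, which activated CD8 cells also express, had the highest mean and fell by 0.73. The follicular chemokine receptor gene Cxcr5 was the higher one, by 1.45, with 2658, 2788 and 2298 normalized counts in WT and 6429, 6344 and 8593 in UTX-deficient cells, where it exceeded Icos. Cd4 itself had 90.1, 104 and 83.1 normalized counts in WT and 58.5, 68.1 and 41.3 in UTX-deficient cells. Of 7 stromal and erythroid markers 5 were tested and 1 was higher, with sums of 32196, 29949 and 32338 against 38051, 38199 and 34224, led by the endothelial adhesion gene Pecam1, which leukocytes express as well; Pdpn and Hbb-bs had means under 10.

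The comparison of genotypes asked how RNA of the ribosomal protein genes differs when progenitor cells lack UTX. Together the 90 genes took 5.25%, 5.08% and 5.40% of all normalized counts in WT 1 to 3 and 4.00%, 4.11% and 4.19% in UTX 1 to 3. Every UTX-deficient library lay below every WT library, and the gap was several times the spread within a genotype. The means were 5.24% ± 0.160 (SD, n = 3) and 4.10% ± 0.0965 (SD, n = 3), a difference of -1.14 percentage points and a ratio of 0.783. In bulk RNA, fewer cells of a type and less RNA per cell cannot be told apart, and a share says nothing of the RNA content of a cell.

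**Figure D1:**
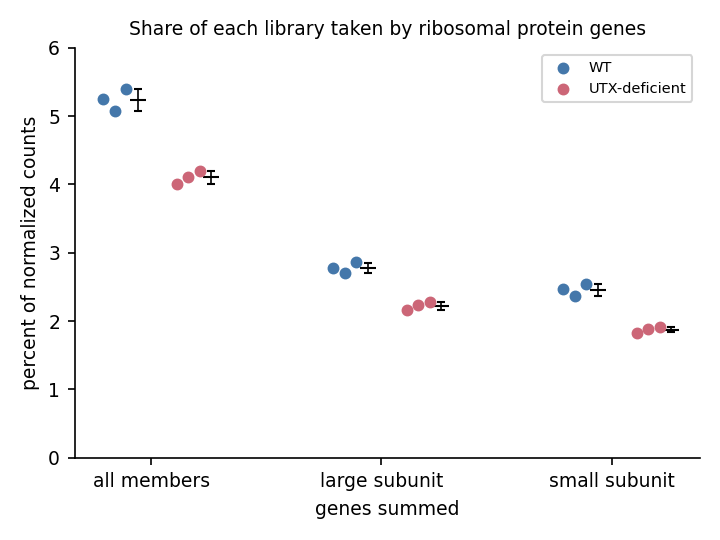
Percent of all normalized counts taken by all members, large subunit genes and small subunit genes, with 1 point per library and the mean with SD (n = 3) beside the points. All UTX-deficient libraries (4.00 to 4.19% for all members) sit below all WT libraries (5.08 to 5.40%).

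Gene by gene, 82 of the 90 members (91.1%) were lower in UTX-deficient cells at adjusted p under 0.05 by limma, against 20.5% of all genes tested. Higher at the same threshold were 2 members, the paralog Rpl39l and Rps4l, an annotated pseudogene, against 20.2% of all genes. In 80 members every UTX-deficient library lay below every WT library, a pattern found in 26.1% of all genes tested, and in 2 every one lay above, against 25.8%. Whatever their p, 87 members had a log2 difference below 0, as had 50% of genes tested, and all 77 standard genes did.

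The differences were moderate and alike in size. The median log2 difference over the members was -0.44, which is 26.2% lower, with the middle part of the members (quartiles) from -0.51 to -0.30; over all genes tested the median was -0.00018. Among the 77 standard genes 69 lay from -0.6 to -0.2, with an SD of 0.13 on the log2 scale, against 0.71 over all genes tested. With the further limit of a log2 difference under -0.5, 24 members (26.7%) were called lower against 7.05% of all genes. With a limit over 0.5, the 2 members named above were called higher against 10.5%. With libraries scaled to the same total 11 members were called lower, and 13 with that scaling without the members.

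**Figure D2:**
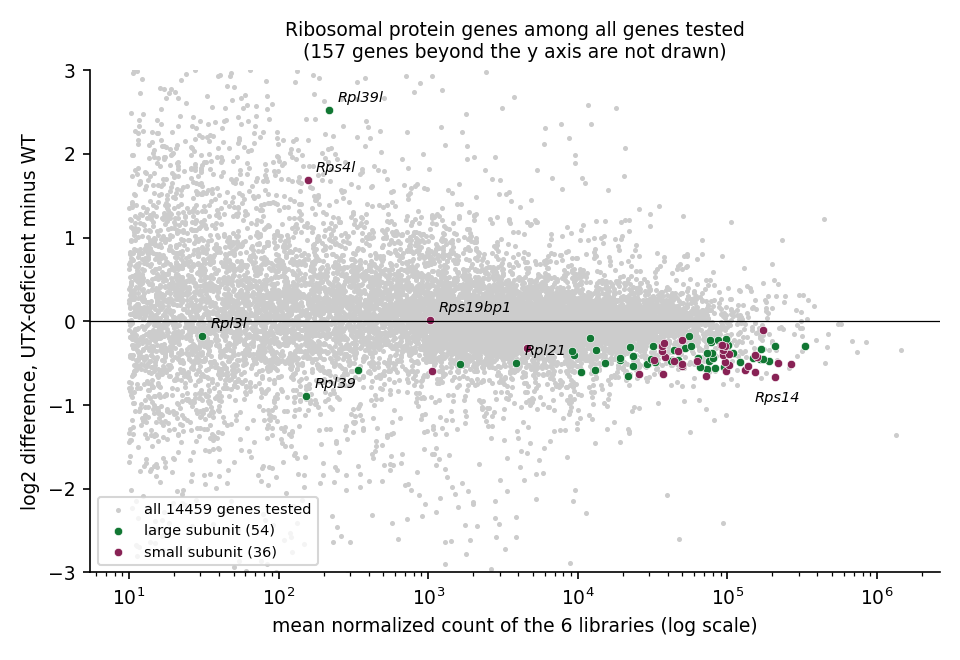
Log2 difference (UTX-deficient minus WT) against the mean normalized count of the 6 libraries on a log axis, with all 14459 genes tested in gray except 157 beyond the y axis. The members form a band of abundant genes below 0, with a median of -0.44, and Rpl39l and Rps4l stand above it.

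Both subunits were lower. Large subunit genes had 49 of 54 lower and a median of -0.44, and small subunit genes 33 of 36 lower and a median of -0.45. For standard genes alone the medians were -0.44 over 46 large subunit genes and -0.46 over 31 small subunit genes. Past the limit of -0.5 were 11 large (20.4%) and 13 small subunit genes (36.1%), and this difference was not tested.

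By summed counts, the large subunit took 2.78%, 2.71% and 2.86% of WT libraries and 2.17%, 2.23% and 2.29% of UTX-deficient libraries. The small subunit took 2.47%, 2.37% and 2.54% against 1.83%, 1.88% and 1.91%. The ratio of large to small subunit counts was 1.12, 1.14 and 1.13 in WT and 1.18, 1.18 and 1.20 in UTX-deficient cells. The mean share of counts in UTX-deficient cells was 0.801 of that in WT for the large and 0.763 for the small subunit. The groups did not overlap in the ratio of large to small, which compares sums of counts and not numbers of proteins.

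In the small subunit, the largest fall was that of Rps14, a protein of the platform near the decoding site. It had 254866, 236984 and 279416 normalized counts in WT and 154884, 167167 and 162595 in UTX-deficient cells, a log2 difference of -0.67 (SE 0.067, 95% confidence interval -0.82 to -0.52, adjusted p = 8.3e-05). Its groups were well apart, and Rps14 was also among the 5 members with the highest counts, beside Rpl4, Rps3, Rps3a1 and Rplp0. Rps27, a zinc finger protein, had 192144, 169363 and 193826 against 121148, 122022 and 121231 (-0.61, SE 0.059). In both the UTX-deficient libraries lay closer together than the WT libraries.

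Rps25, which some viral RNAs need to recruit ribosomes, fell from 117838, 113841 and 119695 to 78355, 78581 and 75810.1 (-0.59, SE 0.043). Rps27rt, a retrogene of Rps27, had 33275, 26539 and 34116 against 19419, 20711 and 20245 (-0.63, SE 0.087). Both kept their groups apart in every library.

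Rps23rg1, a retrogene of Rps23, behaved less evenly, with 1448, 1384 and 968 normalized counts against 1080, 748 and 692 (-0.60, SE 0.19, adjusted p = 0.0357). Here WT 3 was low and UTX 1 high, so that the groups overlapped. Its call ended without WT 1 (-0.49), WT 2 (-0.52), UTX 2 (-0.53) or UTX 3 (-0.47), and when libraries were scaled to the same total (-0.54) or to that total without the members (-0.55). Rps6, whose phosphorylation is a common readout of mTORC1 signaling, had 104262, 96126 and 110712 normalized counts in WT and 74259, 83312 and 88418 in UTX-deficient cells (-0.34, SE 0.074). Rpsa, which doubles as a laminin receptor, had 176757, 155106 and 194229 against 121161, 135964 and 140437 (-0.40, SE 0.087). All UTX-deficient libraries were below all WT libraries in both.

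In the large subunit, Rpl35a, a gene mutated in Diamond-Blackfan anemia, had 12491, 12058 and 13711 normalized counts in WT and 8143, 8943 and 7975 in UTX-deficient cells (log2 difference -0.61, SE 0.063). Rpl34 had 15073, 15488 and 16198 against 9989.5, 10440.3 and 10909.8 (-0.58, SE 0.049). Neither gene had overlapping groups.

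The stalk of the large subunit, which recruits the elongation factors, is made of Rplp0 at its base and Rplp1 with Rplp2 in its arms. Rplp1 had 76144, 73688 and 84538 against 50109.7, 54463 and 55268 (-0.55, SE 0.062). Its partner Rplp2 had 62049.6, 63785 and 63916 against 50659, 51633 and 52591 (-0.29, SE 0.039), and Rplp0 had 223664, 213875 and 246410.5 against 169361, 188741 and 200033 (-0.29, SE 0.076, adjusted p = 0.0137). All 3 were below WT in every UTX-deficient library, and the difference between Rplp1 and the other stalk genes was not tested. With WT 3 and UTX 1 both left out, an alternative chosen after seeing the data, Rplp0 did not pass the test (-0.17).

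Some standard members did not pass the test. Rpl21, mutated in a hereditary hair loss, had 4746, 5066 and 3385 against 5572, 2367 and 2190 (-0.50, SE 0.32, adjusted p = 0.241). UTX 1 was the highest of all 6 libraries there, and without it the difference was -0.93 and passed. With any other library left out Rpl21 did not pass, with differences from -0.68 without WT 3 to -0.25 without UTX 3. Rpl29 had 548, 480 and 220 against 274, 234 and 271 (-0.58, SE 0.30, adjusted p = 0.157). It passed without WT 3 (-0.98) and by DESeq2 (-0.68), but not by edgeR (-0.68). Without WT 1 (-0.33) or WT 2 (-0.42) its difference was smaller and did not pass. Rpl21 and Rpl29 were named after their values were seen.

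Several members have a paralog elsewhere in the genome, and the largest difference of any member was in such a gene. Rpl39l, a paralog of Rpl39 known for its use in male germ cells, had 51.5, 81.0 and 61.0 normalized counts in WT and 360, 364 and 383 in UTX-deficient cells. All UTX-deficient libraries lay far above all WT libraries (log2 difference 2.52, SE 0.19, adjusted p = 1.8e-05). Rpl39 itself, which lines the exit tunnel, had 250, 221 and 121 against 155, 96.1 and 68.6 (-0.90, SE 0.35, adjusted p = 0.0659), with overlap through WT 3 and UTX 1. It passed without WT 3 (-1.21), without UTX 1 (-1.21), by DESeq2 (-0.92) and with replicate number as a block (-0.90), although replicate numbers do not pair mice. Rpl39 did not pass without WT 1 (-0.70), WT 2 (-0.78), UTX 2 (-0.86) or UTX 3 (-0.62), nor by edgeR (-0.94).

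The other member that was higher was Rps4l, a copy of the X-linked Rps4x that is annotated as a transcribed processed pseudogene. It had 69.3, 69.1 and 70.2 normalized counts in WT and 171, 177 and 383 in UTX-deficient cells (1.69, SE 0.30, adjusted p = 0.00194). UTX 3 was the highest library, and each of the others still lay above WT. Rps4x had 124788, 117606 and 106240.4 against 98064, 83569.8 and 84254 (-0.39, SE 0.078), so Rps4l was a small part of the pair's counts in both genotypes.

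In most of the other pairs both partners fell. Rpl22, which is needed for the development of alpha-beta T cells, had 83773, 88178 and 90264 against 59881, 63568 and 64713 (-0.48, SE 0.049). Its paralog Rpl22l1 had 24651, 28226 and 26482 against 15447, 16848 and 18332 (-0.65, SE 0.070). The X-linked Rpl36a (-0.47) and its retrogene Rpl36al (-0.50) fell, with all UTX-deficient libraries below all WT libraries in each. Rps27l, a p53 target and paralog of Rps27, fell by 0.31 from a mean of 5097 to 4099.9.

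Rpl7 (-0.44) and its paralog Rpl7l1 (-0.20, adjusted p = 0.0298) fell. The call of Rpl7l1 ended without WT 2 (-0.21), WT 3 (-0.16), UTX 1 (-0.15) or UTX 3 (-0.20), and under both scalings to the same total (-0.14 and -0.15). Rpl3, which sits near the peptidyl transferase center, fell by 0.23 (adjusted p = 0.0177) and did not pass without WT 3 (-0.17) or UTX 1 (-0.19). Rpl3l, its muscle paralog, was the member just inside the mean of 10, with 30.7, 37.5 and 29.0 normalized counts against 29.2, 21.6 and 36.1 (-0.18, adjusted p = 0.674; 0.013 without UTX 2). Just outside was Rpl10l, a testis paralog of Rpl10, with 1 read in WT 1, 1 in UTX 1 and 0 in the other 4 libraries, too few for a comparison. Rpl10, an X-linked protein that joins the large subunit late in assembly, fell by 0.24. Rps19bp1, no ribosomal protein, had 985, 1056 and 1038 against 1023, 1039 and 1053, with overlap (0.017, adjusted p = 0.872; -0.012 without WT 1 and -0.00045 with TMM scaling).

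**Figure D3:**
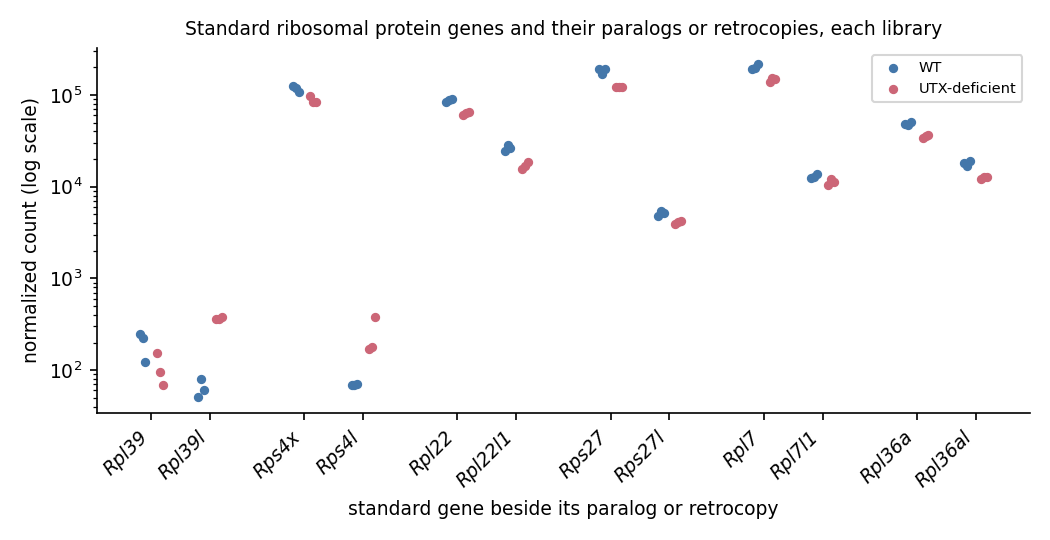
Normalized count of each library on a log axis for standard genes beside their paralogs or, for Rps4l, an annotated pseudogene, 3 WT and 3 UTX-deficient libraries per gene. Rpl39l (360 to 383 in UTX-deficient cells) and Rps4l are above WT in every UTX-deficient library, and Rpl39 overlaps.

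Levels were compared between genes as normalized counts per kb of coding length, which 85 members had. The standard members had a median of 150432 per kb, against 2681 over 12469 genes tested with a coding length, and 75 of the 77 lay above that median. The highest in the large subunit were Rpl41, the shortest protein of the ribosome, at 619252 per kb, Rpl32 at 365710 and Rpl12 at 335136. In the small subunit Rps27, at 608289 per kb, and Rps14, at 462072, were the highest. Reads in untranslated parts are counted too, which raises such levels for a short coding sequence like that of Rpl41. Their log2 differences between genotypes were -0.46 for Rpl41, -0.44 for Rpl32 and -0.45 for Rpl12.

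Although their products are needed in equal numbers, the counts of the members were not alike. The lowest standard member was Rpl29, at 703 per kb, which is 880-fold below the highest. Ribosomal protein genes have many processed pseudogenes, and how reads that map to several places were handled, which annotation was used and the strand setting were not stated, so levels of members with near copies are uncertain. Of the names with ps, 25 had a mean of at least 10. At adjusted p under 0.05, 10 of them (40%) were lower, against 20.5% of all genes tested, and the other 15 did not pass. The median log2 difference of the 25 was -0.45. Rpl34-ps1 had 7559, 7234 and 7902 normalized counts against 4778, 4928 and 4978 (-0.63), alongside its parent Rpl34 at -0.58, and Rps27a-ps3 fell by 0.62; both were picked after their values were seen.

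The 89 members with a position in the annotation were spread over 19 chromosomes, with 4 on X. They shared short transcripts, with a median of 780 bases against 2671 for genes tested. Length also went with the difference between genotypes outside the members, in classes chosen after the values were seen. Genes under 600 bases had a median log2 difference of -0.15 (729 genes) and those from 600 to 1000 bases -0.15 (900 genes), against 0.056 for 3624 genes of 4000 bases or more. Among 564 genes under 1000 bases with a mean of at least 1000, the median was -0.23 and 54.4% were lower. Among the 76 with a mean of at least 10000, the closest class to the members in length and level, it was -0.26 and 65.8% were lower. The members' median of -0.44 lay below these, and the part of transcript length in the result was not tested.

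**Figure D4:**
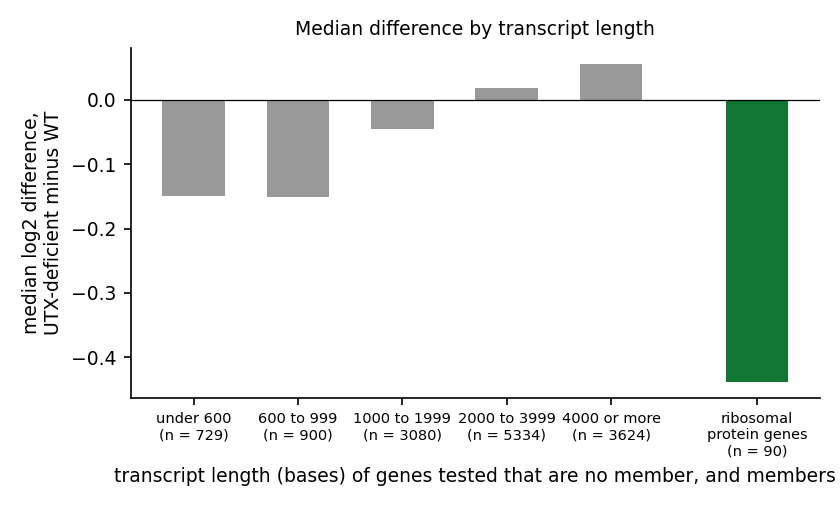
Median log2 difference (UTX-deficient minus WT) of genes tested outside the members by transcript length in bases, and of the 90 members. The shortest classes have medians of -0.15, the longest 0.056, and the members -0.44.

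Genes whose products work with the ribosomal proteins were taken from lists, whose counts stand against 20.2% of all genes tested that were higher and 20.5% that were lower. Fau, a ubiquitin-like fusion with a small subunit protein (log2 difference -0.32), and Rack1, a scaffold on the small subunit (-0.40), lie outside the symbol rule, and both were lower. Of 21 translation factors and other genes known for pyrimidine tracts at their start, 14 were lower and 2 higher, with a median of -0.20. The largest falls were those of Vim, an intermediate filament (-0.75), Tpt1, the translationally controlled tumor protein (-0.67), and Eef1b2, an elongation factor subunit (-0.43). Of 32 other initiation factors 11 were lower and 1 higher (median -0.10); the largest difference was that of Eif2b3, a subunit of the exchange factor eIF2B, which fell by 0.32.

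The machinery that builds ribosomes had medians nearer to 0 than the members. Of 97 ribosome biogenesis genes 30 were lower and 1 higher, with a median of -0.079. Nop10 and Nhp2, which belong to the RNA pseudouridylation complex, were at -0.64 and -0.35, Nsa2, a large subunit assembly factor, at -0.40 and Pes1, which acts in large subunit rRNA processing, at -0.37. Of 20 genes of RNA polymerase I and its factors 8 were lower and 12 did not pass (median -0.12), led by Polr2e, a subunit shared by the nuclear polymerases, which fell by 0.41, and Polr1h, which fell by 0.38. Of 15 host genes of small nucleolar RNAs 4 were lower, not far from the 20.5% of all genes tested, and 11 did not pass (median -0.18), with Snhg8 at -0.44. Of 14 chaperones and import factors of ribosomal proteins 3 were lower, close to the 20.5% of all genes tested, and 11 did not pass (median -0.079), led by Bccip, which fell by 0.25; this list too holds a member, Rps19bp1.

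Genes of the mTOR pathway, which controls translation of ribosomal protein messenger RNA, numbered 24, of which 4 were higher and 5 lower, close to the 20.2% and 20.5% of all genes tested, with a median of -0.043. The sestrins, which restrain mTORC1, were split: Sesn2 had 521, 546 and 516 normalized counts against 1055, 1066 and 837 (0.89), while Sesn1 had 24449, 25820.1 and 25785 against 17512, 18350.2 and 14889.7 (-0.59). In neither gene did the groups overlap.

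Free ribosomal proteins such as Rpl5 and Rpl11 are known to bind Mdm2 and thereby stabilize p53. Of 11 tested genes of a list of p53, its regulators and its targets, 8 were higher and 1 lower, with a median of 0.46. The lower one was Rps27l, itself a member. Cdkn1a, a cell cycle inhibitor, had 29.7, 45.4 and 29.7 normalized counts in WT and 403, 305 and 435 in UTX-deficient cells (3.42, SE 0.23, adjusted p = 9.2e-06). Phlda3, an Akt inhibitor, had 99.1, 148 and 112 against 531, 508 and 601. Bbc3, which promotes apoptosis, was higher by 1.41 and Zmat3, an RNA-binding p53 target, by 1.10. None of these 4 genes had overlapping groups. Whether ribosomal proteins had a part in these differences was not tested.

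Of 12 cell cycle genes 11 were higher at adjusted p under 0.05 and 1 did not pass, with a median of 0.84. Mki67, a marker of cycling cells, had 13571, 14836 and 13395 normalized counts against 27436, 26909.6 and 34778 (1.08), and Top2a, a topoisomerase of dividing cells, was higher by 1.19. The cycling genes were thus higher in the libraries in which ribosomal protein RNA was lower, and their part in that result was not tested.

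Mitochondria have ribosomes of their own. Of 77 mitochondrial ribosomal protein genes 39 were lower and 1 higher, with a median of -0.18, and they took 0.208%, 0.213% and 0.205% of counts in WT against 0.193%, 0.189% and 0.195%. Mrpl33 (-0.73), Mrps33 (-0.54) and Mrpl12 (-0.53) fell, whereas Mrps6 was higher by 0.52. Of 95 nuclear genes of the respiratory chain 67 were lower and 1 higher, with a median of -0.28. The one that was higher was Cox6b2, a testis form of a cytochrome oxidase subunit (1.82). Cox7a2, another subunit, was lower by the next largest difference (-0.90) but not without WT 1 (-0.76), WT 2 (-0.76), UTX 2 (-0.76) or UTX 3 (-0.75). The mitochondrial rRNAs mt-Rnr2 and mt-Rnr1, the only symbols starting with mt- in the table, fell too (-0.34 and -0.25).

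Chromatin opening was compared through the listed ATAC peaks, a list that holds only peaks past the false discovery limit, so that a gene with no listed peak may be open or closed. Of the 90 members 5 (5.56%) had a listed peak at their promoter, against 11.5% of genes tested. With a difference between the means over 0.5, the limit on the log2 scale that the publication sets for accessibility, the count was 0 of 90 members, against 5.26% of genes tested. The authors' mean at the promoter peak was higher in UTX-deficient cells for all 5, while 9.27% of genes tested had such a higher peak and 2.26% a lower one. The RNA of all 5 was lower. Only the authors' mean of each genotype was given, so no spread between libraries can be stated for peaks.

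At Rpl5, the peak at chr5:107900332-107900732 had the authors' mean at 10.44 in UTX-deficient and 10.09 in WT cells on the log2 scale, a difference of 0.35, and the RNA fell by 0.49. At Rplp2 of the stalk, the peak at chr7:141447205-141447605 was at 11.58 against 11.25 and the RNA fell by 0.29. At Rpl37a, a zinc finger protein of the large subunit, chr1:72711020-72711420 was at 10.54 against 10.22, and the RNA fell by 0.30. In each the chromatin value was higher and the RNA value lower.

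At Rps12, chr10:23787025-23787425 was at 11.09 against 10.78, and the RNA fell by 0.36. At Rps14, whose RNA fell most among these 5, chr18:60774380-60774780 was at 11.28 against 11.03. No other gene start lay within 1 kb of these peaks. Their differences, 0.25 to 0.35, were under the median size of 0.47 for promoter peaks of genes tested. Among the 1340 genes tested with a higher promoter peak, 606 had higher and 120 (8.96%) lower RNA at adjusted p under 0.05 by limma. Their median RNA difference was 0.38. The 5 members had lower RNA, as did 82 of all 90 members (91.1%), most of which had no listed promoter peak. Whether peak and RNA are linked at the members was not tested. With any peak whose nearest start is that of a member, 27 members (30%) had 55 listed peaks, against 47.6% of genes tested; 43 of the peaks were higher and 12 lower, and 31 were intergenic.

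Since the members fell together, their start regions were read for shared letters. RefSeq start regions of build GRCm38.p6, from 250 bases before to 50 after the start, were at hand for 68 members and 32851 promoters in all. A start tract was defined as a C within 5 bases of the start followed by at least 4 bases that are C or T, on the sense strand only. It was present in 32 of the 68 members (47.1%), against 18.3% of all promoters and 23.7% of 10655 genes tested. Members and genes tested were counted per gene, with a tract at any listed start. All promoters were counted per start, so their share is not in the same unit. The members with a tract had a median log2 difference of -0.48 and the 36 without one -0.37, a difference that was not tested. Other genes tested had medians of 0.013 with a tract (2492 genes) and 0.0019 without (8095 genes).

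The stretches shown here give the start of members with a large fall, of a member with a small one and of the pair that diverged, each 5′ to 3′ from 15 bases before the start, with the start tract in capitals. Rps27 (chr3:90213634-90213663, minus strand), Rpl35a (chr16:33056467-33056496, plus strand) and Rpl22l1 (chr3:28805493-28805522, plus strand) had log2 differences of -0.61, -0.61 and -0.65. Rps25 (chr9:44407699-44407728, plus strand) fell about as much (-0.59) and has no tract by this rule. Rpl14 (chr9:120571502-120571531, plus strand), picked after its value was seen, fell by 0.17. Its tract by this rule has 10 bases, against 9 in Rps27, 13 in Rpl35a and 8 in Rpl22l1. The rule counts from a C within 5 bases of the start. In Rpl14 the run of C and T begins farther before the start, so the full run is longer than its capitals. Of the 3 listed starts of Rpl35a, the one with the tract is shown. Rpl39 (chrX:37085208-37085237, minus strand) has a tract of 5 bases. Rpl39l (chr16:10170213-10170242, plus strand), which was higher, has none by this rule. In Rpl39l no C within 5 bases of the start is followed by at least 4 bases that are C or T. Rplp2 (chr7:141447636-141447665, plus strand) and Rpl5 (chr5:107900513-107900542, plus strand) are shown for their promoter peaks.
Rps27: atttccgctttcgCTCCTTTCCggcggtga
Rpl35a: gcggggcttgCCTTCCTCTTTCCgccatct
Rpl22l1: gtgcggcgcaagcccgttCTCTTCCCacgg
Rps25: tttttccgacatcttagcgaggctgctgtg
Rpl14: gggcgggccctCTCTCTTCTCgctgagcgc
Rpl39: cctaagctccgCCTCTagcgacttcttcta
Rpl39l: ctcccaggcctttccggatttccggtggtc
Rplp2: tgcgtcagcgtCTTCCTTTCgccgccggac
Rpl5: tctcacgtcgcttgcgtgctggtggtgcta

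Other motifs were searched on both strands of the same 300 bases. As for the tract, members and genes tested were counted per gene, and all promoters per start. CCGGAAG, the letters of ETS family sites, was in 26 members (38.2%) against 8.86% of all promoters and 19.5% of genes tested. AAGATGGC, the core letters known for YY1, was in 6 members (8.82%) against 2.75% of all promoters and 5.09% of genes tested. CACGTG, an E-box, was in 6 (8.82%), against 7.15% of all promoters and 11.3% of genes tested. TATAAA was in 8 (11.8%), against 13.6% of all promoters and 8.90% of genes tested. GGGCGG, a GC box, was in 40 (58.8%) against 35.7% of all promoters and 66.0% of genes tested. These letters describe the sequence, and whether any factor binds there was not measured.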

How the data were processed

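Per the labels and the publication, RNA reads were aligned by the authors with HISAT2 2.2.1 to mm10, counted per gene with featureCounts and divided by DESeq2 size factors. The deposited RNA values are thus a signal, normalized counts per gene, and 100% of them were whole multiples of 1 read per library (tolerance 0.01 of a read), from which reads were recovered. The deposited peak values are log2 means by DiffBind. The authors' comparison columns hold DESeq2 fold changes with their errors and adjusted p, and DiffBind fold changes with p and FDR; they gave no result here, beyond the FDR that selects the listed peaks.

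The log2 of the normalized count plus 1 was compared by genotype with limma 3.58.1 (trend) in R 4.3.3 over genes with a mean of at least 10, with Benjamini-Hochberg adjustment over all genes tested. Calls used an adjusted p under 0.05, and where stated a log2 difference past 0.5. An exact permutation test of 3 against 3 cannot go below 0.1 and was not used. limma called 1518 genes higher and 1020 lower, edgeR 4.0.16 on recovered reads 1529 and 1012, and DESeq2 1.42.0 1462 and 960. The procedure was tested on simulated data. Tables and plots used Python 3.11.15, pandas 2.3.3, numpy 2.4.6 and matplotlib 3.10.9.

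Named members were the 10 largest called in each direction, stalk genes, Rpsa, Rps6, paralog pairs, members with a promoter peak, those beside the mean of 10, the 3 highest per kb in each subunit and Rps19bp1; of other lists, up to 4 genes with the largest differences past the test, all sort markers, Fau, Rack1 and Kdm6a. Some genes that this rule takes are not named. Members and lists were chosen with earlier results of these data known. Alternatives were other pseudocounts, filters, scalings, tools, a replicate block and leaving out libraries.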

Additional observations from a re-analysis of the deposited data

How the results depend on the processing

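Lower members numbered 72 with WT 3 and UTX 1 both left out, the lowest of all alternatives, 92 when pseudogene names were counted too, the highest, and 76 to 81 when 1 library was left out; all 77 standard genes were below 0 in each. Called lower members numbered 11 with libraries scaled to the same total and 13 with that scaling without the members, and 21 to 27 when 1 library was left out. Higher and called higher members were 2 in each of the latter, and 0 for standard genes only, an alternative added after seeing the data, which by construction drops Rpl39l and Rps4l. The median over members was -0.38 at the same total, -0.39 at the same total without the members, -0.37 with WT 3 and UTX 1 both left out (added after seeing the data), -0.36 as a mean, and -0.46 to -0.40 when 1 library was left out. For the large subunit these were -0.38, -0.39, -0.37, -0.36 and -0.44 to -0.39. For the small subunit the same total gave -0.38, both libraries left out -0.37, the mean -0.37 and 1 library left out -0.49 to -0.42. The same total moved the median of all genes by 0.062. The difference in share was -0.91 without the 5 most abundant members, and -1.22 to -1.06 when 1 library was left out. Members with a promoter peak numbered 27 with any peak and 0 with a mean difference over 0.5. Where the construction of an alternative does not show it, the cause was not tested.

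Replicate numbers did not pair libraries: correlations of residuals across genes were 0.31, -0.20 and 0.09 for equal numbers. With a replicate block 83 members were lower, 25 called lower, 2 higher and 2 called higher, with medians of -0.44, -0.44 for the large and -0.45 for the small subunit. Of 628 values for 37 named members 597 kept direction and side of the threshold, 17 lost the call, 11 gained it and 3 reversed, and of 1268 values for 75 other named genes 1152 did, with 107 lost, 4 gained and 5 reversed. The reversed values were Rpl3l 0.013 without UTX 2 (range -0.34 to 0.013 with 1 library left out), Rps19bp1 -0.00045 with TMM scaling and -0.012 without WT 1 (-0.012 to 0.038), and Trac, a T cell receptor chain at -0.011, 0.052 at the same total, 0.035 at the same total without the members, 0.026 without WT 1, 0.0063 without UTX 2 and 0.0077 without UTX 3 (-0.046 to 0.026); none of these passed the test in any setting, and the cause was not tested. Depth limits low members such as Rpl39l, Rps4l and Rpl3l, since 1 read of UTX 1 weighs 2.25 normalized counts.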
